A study of Drosophila melanogaster with 12 samples.

Results

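The Turandot genes of *Drosophila melanogaster* encode small secreted peptides, and 4 of them, *TotA*, *TotC*, *TotM* and *TotX*, are described here across guts and carcasses of *nub1* mutant and wt flies. They were chosen by name, and their probe sets were taken from the annotation of the platform, brought to present symbols by Entrez identifier, or from the supplementary tables of the study. A probe set is a group of short probes on an array that together measure 1 transcript. Of the 4 genes, 3 had a probe set, so that 3 of the 18769 non-control probe sets of the series are followed. *TotC* (CG31508) is read by 1639323_at, which the platform annotation names. *TotM* (CG14027, 1623635_at) and *TotX* (CG31193, 1625164_at) are named only in a supplementary table of transcripts that differed more than 2-fold in carcass on these same arrays. A difference in carcass was therefore a condition for following these 2 genes at all, and their carcass values are not independent evidence of it. No probe set was assigned to *TotA* (CG31509) in the sources used here, and it was not analysed here.

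Turandot peptides are released into the hemolymph, mainly from the fat body, the organ that combines the roles of liver and adipose tissue in insects. *TotA*, the founding member, rises after bacterial infection, heat, drying, ultraviolet light and oxidative agents, and the family is used as a general sign of stress in flies. Its induction is known to need the JAK-STAT pathway, in which a cytokine (upd) binds the receptor Dome, the kinase Hopscotch is activated and the transcription factor Stat92E enters the nucleus. The stress kinase Mekk1 and the NF-κB factor Relish of the IMD immune pathway are also known to act on *TotA*. In the RefSeq gene order (Release 6 assembly, used for names and order alone), *TotA*, *TotC*, *TotB* and *TotZ* follow each other on chromosome arm 3R with no gene between them, and *TotX* lies 7 genes further along the same arm. *TotM* stands by itself on arm 2L, where *TotF* and *TotE* are neighbours elsewhere.

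The series holds 12 arrays in 4 groups of 3, namely wt carcass, *nub1* carcass, wt gut and *nub1* gut. Each array was hybridized with RNA from a pool of 20 untreated females, 7 to 12 days old and kept with males at 25°C. The sources give 3 independent pools and do not say whether a gut and a carcass array share their flies, and the tests between tissues treat the arrays as independent. The carcass is what was left of the fly without head and gut, so that it holds the fat body, the body wall, muscle and ovaries. The mutant strain was *nub[1] b[1] pr[1]*, which also carries alleles of *black* and *purple*. The control was OregonR by the series design, whereas the sample labels give OregonR and w1118 together. The *nub1* allele is a retrotransposon insertion upstream of 1 transcript of *nubbin*, a gene of the POU family of transcription factors, and removes the protein form Nub-PD. The effect of the allele and that of the strain background cannot be told apart in this design.

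The values are MAS5 signals on a linear scale in arbitrary units, scaled so that the trimmed mean is 100 on every array. Tests were run with limma on log2(signal + 10), with the 4 groups in 1 model. A probe set entered a test when a compared group reached a signal of 10 on each of its 3 arrays. A change was called where the p after Benjamini-Hochberg adjustment was under 0.05 and the fold was 2 or more. Arrays had median signals of 7.81 to 14.9, and the highest medians were those of wt gut. The brightest probe set of *nub* had a signal of 267 ± 58.2 (SD, n = 3) in wt gut and 457 ± 95.8 in *nub1* gut and stayed below 10 in both carcass groups. It was not assigned to the transcript that the allele removes and does not check the labels. Digestive enzyme markers set gut from carcass on all arrays (mean log2 signal 11.26 to 11.82 against 6.49 to 7.67). Fat body markers, 8 measured of 9, had a summed signal of 15438 to 17262 in wt carcass and 14831 to 16330 in *nub1* carcass. In wt gut the sum was 10923 to 14247, and in *nub1* gut 6080 to 9489. These sums are mostly the yolk protein genes *Yp1* and *Yp2*. Other members differed from them. *Lip4* was higher in wt gut (234 to 259.7) than in wt carcass (128 to 175), and *AkhR* was lower (35.6 to 63.1 against 116 to 147). *Fbp1* was below 10 on all arrays. *AkhR* (10.7 to 20.6) and *FASN1* (1168 to 1423, against 1955 to 2048 in wt) were lower in *nub1* carcass than in wt carcass. There *Lsp2* (414 to 1009 against 23.3 to 188) and *apolpp* (2420 to 2863 against 1791 to 2186) were higher. The other measured markers overlapped between the carcass groups. Eggshell genes summed to 36920 to 43470 in carcass and ranged from 139 to 19971 over the wt gut arrays and from 106 to 14979.5 over the *nub1* gut arrays. Genes of the male ejaculatory duct and tract, 7 measured of 9, summed to 505 and 1062 on *nub1* gut replicates 1 and 3 and to between 18.3 and 112 on the 10 others. In *nub1* gut, *Dup99B* reached 781, *Ebp* 123 and *EbpII* 104. Other members differed, since *Acp26Aa*, *Acp36DE* and *Acp53Ea* were below 10 on all arrays. *Gld* had 27.7 to 46.5 in *nub1* gut and 44.4 to 71.6 in wt gut. Fewer cells of a type and less RNA per cell cannot be told apart in such bulk samples.

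All 3 measured genes had their highest mean signal in *nub1* carcass, followed by wt carcass, *nub1* gut and wt gut in that order. *TotX* was the one gene of the 3 called higher in *nub1* carcass, and none was called in gut. The spread between pools of the same group was large for all 3 genes, and it is the main limit on the comparisons below.

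The signal of *TotX* was 44.5, 89.6 and 31.7 on the 3 wt carcass arrays and 213, 185 and 145 on the 3 *nub1* carcass arrays. Every *nub1* carcass array was thus above every wt carcass array, and the closest were wt replicate 2 and *nub1* replicate 3. In gut, *TotX* had 10.7, 17.0 and 15.7 in wt and 9.82, 24.5 and 90.8 in *nub1* flies. The 2 genotypes overlapped there, since *nub1* gut replicate 1 was lower than every wt gut array and replicate 3 several times higher. The group means of *TotX* were 181 ± 34.0 (SD, n = 3) in *nub1* carcass, 55.3 ± 30.4 in wt carcass, 41.7 ± 43.2 in *nub1* gut and 14.4 ± 3.32 in wt gut. Between wt carcass and *nub1* gut, which stand next to each other in this order, the arrays overlapped, and no test was made.

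*TotM*, like *TotA*, is known to respond to bacterial infection. Its signal was 105, 171 and 107 in wt carcass and 350, 365 and 115 in *nub1* carcass. *nub1* carcass replicate 3 fell within the range of the wt arrays, while both others lay above it. In gut, the wt arrays of *TotM* had almost the same signal, 52.7, 54.1 and 54.3, while the *nub1* arrays had 11.5, 92.6 and 254. One *nub1* gut array was therefore below all wt gut arrays, and both others were above them. The means of *TotM* were 276 ± 139.9 (SD, n = 3) in *nub1* carcass, 128 ± 37.6 in wt carcass, 119.5 ± 124 in *nub1* gut and 53.7 ± 0.873 in wt gut. The *nub1* gut arrays of *TotM* overlapped those of both carcass groups.

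*TotC*, which lies between *TotA* and *TotB*, had signals of 96.5, 392 and 108 in wt carcass and of 540.0, 366 and 182 in *nub1* carcass. Wt carcass replicate 2 exceeded the second and the third *nub1* array, so the genotypes overlapped. In gut the signals of *TotC* were 26.8, 40.1 and 76.1 in wt and 16.4, 56.0 and 164 in *nub1* flies. The lowest and the highest of these 6 arrays were both *nub1* arrays. The means of *TotC* were 363 ± 179 (SD, n = 3) in *nub1* carcass, 199 ± 167 in wt carcass, 78.6 ± 76.1 in *nub1* gut and 47.7 ± 25.5 in wt gut.

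**Figure D1:**
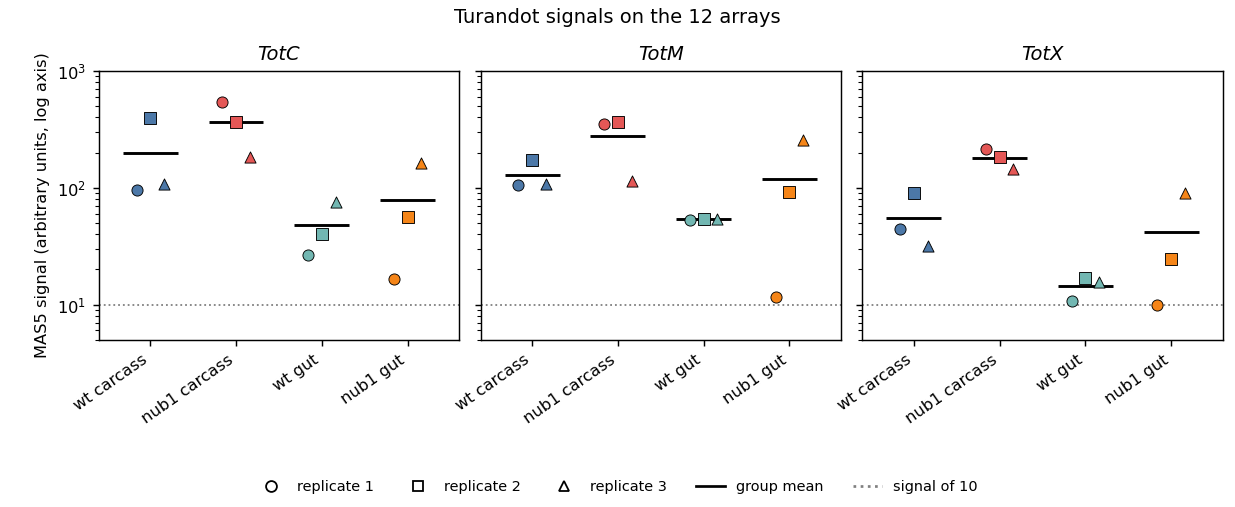
MAS5 signals of *TotC*, *TotM* and *TotX* (arbitrary units, log axis) on each array of the 4 groups, with the marker shape for the replicate number, a bar at the group mean and a dotted line at the signal of 10 used for testing. The *nub1* carcass arrays of *TotX* (145 to 213) sit above all its wt carcass arrays (31.7 to 89.6), whereas the *nub1* gut arrays of each gene spread above and below those of wt gut.

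The family had 4 further genes on the array, and none reached the level needed for a test. *TotB* and *TotZ*, the neighbours of *TotC*, were below a signal of 10 on all 12 arrays, with highest values of 6.15 and 4.68. *TotE* and *TotF* reached 10 on 2 of 12 arrays each, with highest values of 11.4 and 12.1. The median signal over the arrays was 3.23 for *TotB*, 1.98 for *TotZ*, 5.14 for *TotE* and 5.24 for *TotF*. Signals at this level are near background, and no fold between genotypes is given for them. Whether the probes of *TotC* also bind transcripts of its close relatives was not tested.

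The first comparison asks which transcripts differ in carcass between the *nub1* strain and wt flies. The mean signal of *TotX* in *nub1* carcass was 3.28 times that in wt carcass, and its log2 fold change was 1.63 (SE 0.48, 95% interval 0.58 to 2.68, adjusted p = 0.0384 from limma). *TotC* had a ratio of means of 1.82 and 0.99 on the log2 scale (SE 0.68, adjusted p = 0.416), and *TotM* a ratio of 2.16 and 0.93 (SE 0.71, adjusted p = 0.475). The intervals of these 2 genes ran from −0.49 to 2.47 and from −0.62 to 2.47, so that neither no change nor a change of the size seen for *TotX* lay outside them. One of the 3 measured genes was thus called, where 4.71% of the 8855 tested probe sets were called in carcass and 2.77% in the higher direction. With the naming of *TotX* and *TotM* resting on their carcass ratio, nothing is read from this count. The *nub1* carcass arrays were all above those of wt for *TotX*, as they were for 20.9% of all tested probe sets. Of the tested probe sets, 1.72% had a larger log2 fold change in size than *TotX*, yet it ranked 1271 of 8855 by p.

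The call of *TotX* in carcass was close to the threshold. Leaving out 1 array at a time, its log2 fold change stayed between 1.36 and 1.99, but the call held only without wt carcass replicate 2 (adjusted p = 0.0282 from limma) and was lost in the 5 other cases, with adjusted p up to 0.145 without wt carcass replicate 3. It was also lost with a pseudocount of 1 (adjusted p = 0.0768), no filter (0.0742), quantile normalization (0.0818), robust moderation (0.0560) and the replicate number as a block (0.0527), and held in the 3 other settings of the 8 tried.

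In gut, none of the 3 genes was called, where 9.28% of the 9782 tested probe sets were. The ratios of means, *nub1* over wt, were 1.65 for *TotC*, 2.23 for *TotM* and 2.89 for *TotX*. The log2 fold changes were 0.31 (SE 0.67, adjusted p = 0.749 from limma) for *TotC*, 0.39 (SE 0.70, adjusted p = 0.693) for *TotM* and 0.76 (SE 0.48, adjusted p = 0.242) for *TotX*. The 2 measures differ in size because 1 array carried most of the signal. *nub1* gut replicate 3 held 69.3% of the summed signal of its group for *TotC*, 71.0% for *TotM* and 72.6% for *TotX*. Without that array the log2 fold changes were −0.38 for *TotC*, −0.44 for *TotM* and 0.11 for *TotX*, the first 2 of them in the other direction. Without *nub1* gut replicate 1, the lowest array, they were 0.98, 1.37 and 1.28, and *TotX* passed the test (adjusted p = 0.0443 from limma). Without both of these arrays, the ones with ejaculatory duct transcripts, only 1 array of *nub1* gut was left. The log2 fold changes were then 0.28, 0.69 and 0.51. Without wt gut replicate 3 and *nub1* gut replicate 2, which had the most eggshell signal of their groups, they were 0.66, 0.25 and 0.92, with none called.

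The change in *nub1* flies was smaller in gut than in carcass by point estimate for all 3 genes, and the difference did not pass the test for any. *TotM* and *TotX* were followed only through their carcass difference on these same arrays. Nothing is therefore read from their smaller log2 change in gut. The effect in gut minus that in carcass, on the log2 scale, was −0.68 for *TotC* (adjusted p = 0.689 from limma), −0.54 for *TotM* (adjusted p = 0.766) and −0.88 for *TotX* (adjusted p = 0.435), where 6.56% of the 10199 tested probe sets were called. For *TotX* the 95% interval was −2.36 to 0.60, and without *nub1* gut replicate 3 the difference was −1.53 with an adjusted p of 0.0492. For *TotM* it changed direction to 0.44 without *nub1* gut replicate 1.

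**Figure D2:**
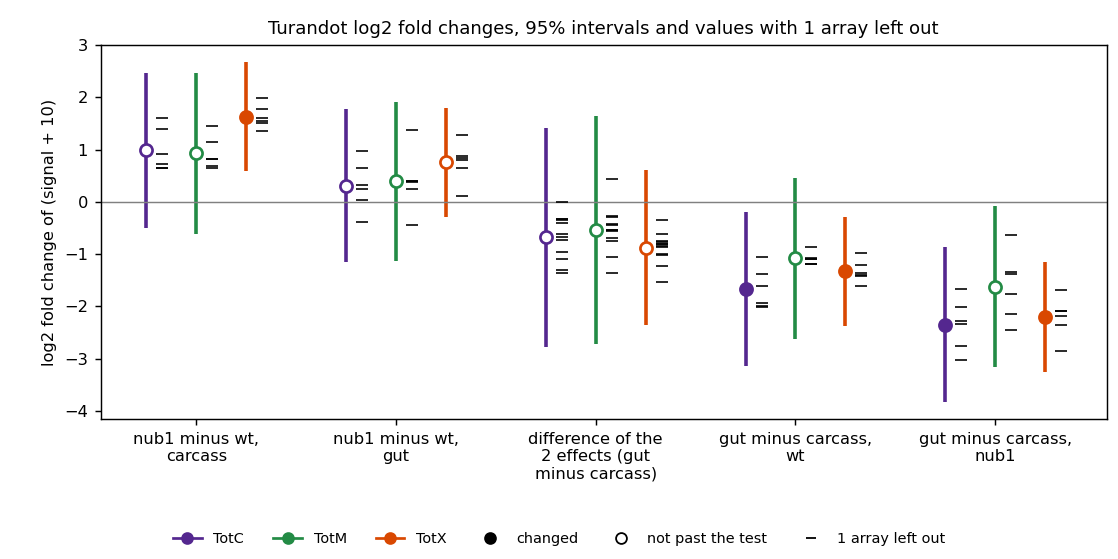
Log2 fold changes of (signal + 10) for *TotC*, *TotM* and *TotX* in the 5 comparisons, with 95% intervals from limma, filled points where the call was made, and short dashes for the values with 1 array left out. *TotX* at 1.63 is the one filled point between genotypes, and the dashes of *TotC* and *TotM* in gut lie on both sides of 0.

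The same arrays also allow the tissues to be compared within a genotype. The 3 genes had higher mean signals in carcass than in gut in both genotypes. In wt flies, carcass over gut, the ratio of means was 4.17 for *TotC*, 2.38 for *TotM* and 3.83 for *TotX*, and no gut array of these genes was as high as any carcass array. The log2 fold change, gut minus carcass, was −1.67 (SE 0.68, adjusted p = 0.0377 from limma) for *TotC*, −1.08 (SE 0.70, adjusted p = 0.170) for *TotM* and −1.33 (SE 0.48, adjusted p = 0.0223) for *TotX*. *TotC* and *TotX* were thus called lower in wt gut, as were 21.9% of the 9964 tested probe sets. In *nub1* flies the log2 fold change was −2.35 (SE 0.68, adjusted p = 0.00696) for *TotC*, −1.62 (SE 0.71, adjusted p = 0.0505) for *TotM* and −2.20 (SE 0.48, adjusted p = 0.00114) for *TotX*, and *TotC* and *TotX* were again called lower, as were 22.7% of 9436. There the ratio of means, carcass over gut, was 4.61, 2.31 and 4.34 in the same order, and the gut and carcass arrays overlapped for *TotM* alone. Arrays without overlap and lower in gut were frequent among all tested probe sets, 53% in wt and 57.3% in *nub1* flies. The median log2 fold change of all tested probe sets was itself −0.32 in wt and −0.46 in *nub1* flies, and quantile normalization moved the latter to −0.34. With it *TotC* and *TotX* were still called in *nub1* flies, but *TotC* lost its call in wt flies (−1.61, adjusted p = 0.0721 from limma). *TotX* in *nub1* flies kept its call without any 1 array (−2.85 to −1.68). The call of *TotC* in wt flies was lost without wt gut replicate 1, without wt gut replicate 2 or without wt carcass replicate 2 (−1.05 in the last case), and that of *TotX* in wt flies without wt gut replicate 1 or wt carcass replicate 2. *TotM* in *nub1* flies passed the test without *nub1* gut replicate 3 (−2.45) or *nub1* carcass replicate 3 (−2.14), and was at −0.64 without *nub1* gut replicate 1.

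Pools of the same group differed more for the Turandot genes than for almost any other transcript. The SD of log2(signal + 10) within groups, pooled over the 4 groups, was 0.99 for *TotC*, 1.04 for *TotM* and 0.70 for *TotX*, against a median of 0.18 over 10199 probe sets, those bright enough in at least 1 group. Of these, 0.608%, 0.49% and 1.28% had a larger SD than *TotC*, *TotM* and *TotX*, respectively. The widest group was *nub1* gut, where the highest array was 9.96 times the lowest for *TotC*, 22.1 times for *TotM* and 9.25 times for *TotX*. In wt carcass the range was 4.06-fold for *TotC*, 1.62-fold for *TotM* and 2.82-fold for *TotX*. *TotM* in wt gut was the exception, with a 1.03-fold range and an SD of 0.02, which 98.4% of the kept probe sets exceeded. In 10 of the 12 combinations of gene and group, under 10% of the kept probe sets had a larger SD, and *TotX* in *nub1* carcass was one of these with 9.03% above it. *TotX* in wt gut, with an SD of 0.20, was exceeded by 29.8%.

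The 3 genes deviated from their group means on the same arrays. Wt carcass replicate 2 was the highest of its group for each of *TotC*, *TotM* and *TotX*, *nub1* carcass replicate 3 the lowest, wt gut replicate 1 the lowest, and the order in *nub1* gut, replicate 3 above 2 above 1, was the same for all 3 genes. The wt gut arrays of *TotM* spanned only 1.03-fold, so its order there means little. Over the 12 arrays, the deviations of *TotC* and *TotX* had a Pearson r of 0.91 and a Spearman rho of 0.86 (p = 0.00386 and 0.0116 from an exact two-sided permutation of arrays within groups, 0.0104 and 0.0174 after adjustment over the 3 gene pairs). *TotC* and *TotM* had r = 0.85 and rho = 0.93 (exact permutation p = 0.00694 and 0.00309, adjusted 0.0104 and 0.00926). *TotM* and *TotX* had r = 0.87 and rho = 0.79 (exact permutation p = 0.0293 and 0.0278, the same after adjustment). Without the 2 arrays farthest from the median on the first gene, r was 0.83 for *TotC* and *TotX* and 0.81 for *TotC* and *TotM*, but 0.56 for *TotM* and *TotX*, so that the last relation rests in good part on *nub1* gut replicates 1 and 3. Within the 6 carcass arrays r was 0.92, 0.81 and 0.66 for these pairs in the same order, and within the 6 gut arrays 0.93, 0.90 and 0.94. *TotC* and *TotX* lie on the same arm and *TotM* on another chromosome. The share of other gene pairs that deviate together this strongly was not computed, so the relation is not shown to be particular to the family.

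**Figure D3:**
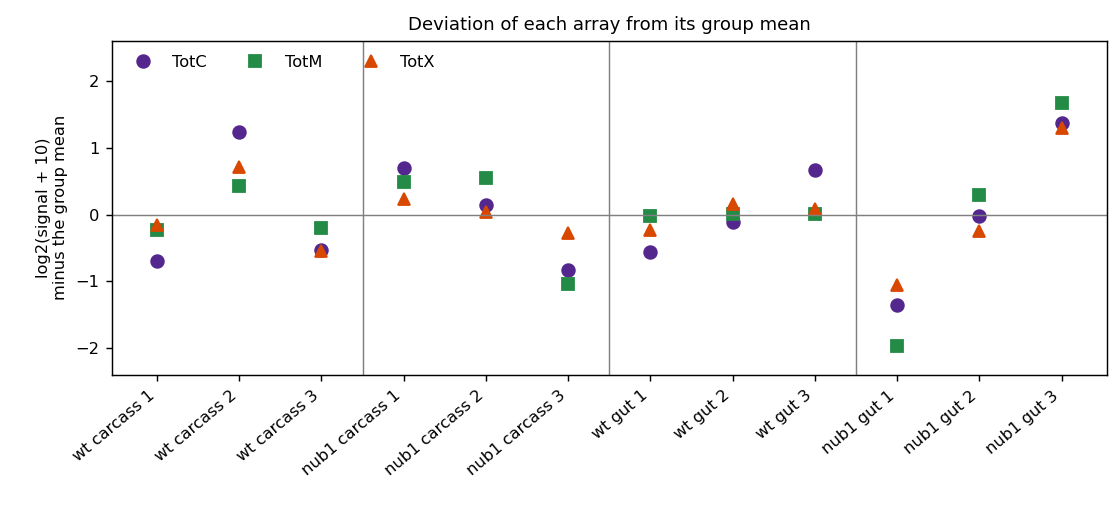
Deviation of log2(signal + 10) from the group mean for *TotC*, *TotM* and *TotX* on each of the 12 arrays, with vertical lines between the groups. The 3 genes lie together at the top for wt carcass replicate 2 and *nub1* gut replicate 3 and together at the bottom for *nub1* carcass replicate 3 and *nub1* gut replicate 1.

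Transcripts of other organs also varied between these pools. On *nub1* gut replicates 1, 2 and 3, where the Turandot signals were lowest, intermediate and highest, the fat body markers summed to 6080, 7976 and 9489. On wt gut replicates 1, 2 and 3, where *TotC* was 26.8, 40.1 and 76.1, they summed to 14247, 13297 and 10923. The mean log2 signal of the same markers, in which each gene counts alike, was 7.28, 7.65 and 7.81 on the *nub1* gut arrays and 8.35, 8.26 and 8.30 on the wt gut arrays, so that in wt gut the order depends on the summary used. The eggshell genes summed to 139, 11887 and 19971 on these wt gut arrays, and to 106, 14979.5 and 1060 in the same order in *nub1* gut. Ejaculatory duct genes summed to 505, 52.8 and 1062 on the *nub1* gut arrays. The part of these tissues in the Turandot signals was not tested.

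The genes most like each Turandot gene were ranked over 8382 named genes by the smaller of the r over the 6 carcass arrays and the r over the 6 gut arrays, both on log2(signal + 10). With *TotC*, *TotM* reached 0.87 and *TotX* 0.83, and the highest value of any gene outside the family was 0.85 for *CG32017*. The next were *CG11986* (0.76), *CG6553* (0.75), *CG18563* (0.67) and *Ucp4B* (0.66), a mitochondrial carrier gene. With *TotM*, *CG32017* (0.91) was above *TotC*, and *Madm* (0.77), *CG43085* (0.77), *CG18563* (0.73) and *CG30338* (0.73) followed. With *TotX* the first were *CG30338* (0.87), the calpain protease gene *CalpB* (0.86), the kinase gene *mnb* (0.86), the esterase gene *clt* (0.83) and *CIA30* (0.82), a gene for assembly of respiratory complex I, so that *TotC* ranked behind 4 of these and *TotM* behind 15 genes. These r include the difference between genotypes and are given as a description. The range of *CG32017* was small, with mean signals of 14.3, 16.6, 18.1 and 19.0 in wt carcass, *nub1* carcass, wt gut and *nub1* gut, and of these genes only *CG18563* was called between genotypes (log2 fold change 1.09 in carcass, adjusted p = 0.0420 from limma).

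Genes of the pathways known to act on Turandot genes were counted next, against 4.71% of all tested probe sets called in carcass and 9.28% in gut. At any fold, an adjusted p under 0.05 was reached by 15.6% in carcass and 35.1% in gut. Lists this short can hold few calls at these shares, and nothing particular to them is read from the counts. Of the JAK-STAT ligands, *upd1* and *upd2* were measured and neither could be tested. The ligand gene *upd3*, the kinase gene *hop* and the inhibitor gene *Socs36E* were listed but not measured. *et*, listed with the receptor, was measured but could not be tested. *upd1* had mean signals of 3.26 and 5.49 in wt and *nub1* carcass and of 11.9 and 3.75 in wt and *nub1* gut. The receptor gene *dome* had signals of 247 ± 7.35 (SD, n = 3) in wt and 260.1 ± 14.1 in *nub1* carcass, 0.07 on the log2 scale (adjusted p = 0.702 from limma), and in gut its log2 fold change was 0.15 (adjusted p = 0.211). *Stat92E* had 456 ± 24.5 and 452 ± 30.0 in the carcass groups (log2 fold change −0.01, adjusted p = 0.970). In gut it had 385 ± 65.6 in wt and 530.3 ± 50.4 in *nub1* flies, a log2 fold change of 0.46 with an adjusted p of 0.0120, which was under the 2-fold minimum. Of the 4 tested inhibitors of the pathway, none was called in either tissue, but 3 passed the adjusted p in gut with changes under 2-fold. These were the phosphatase gene *Ptp61F* (log2 fold change 0.71, adjusted p = 0.000433 from limma), *Su(var)2-10* (0.71, adjusted p = 0.0101) and *ken* (−0.44, adjusted p = 0.0219).

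Among other genes reported as targets of JAK-STAT signalling, a list that also holds *dome*, those tested showed 1 rise in carcass and 2 falls in gut. Of the 9 listed, 6 were measured, without *Tep1*, *Tep2* and *Socs36E*. The study reports *Tep2* (as Tep II) as higher in *nub1* carcass. In carcass 1 of 4 tested was called, *Listericin*, an antibacterial peptide gene, which rose from 57.7 ± 3.74 (SD, n = 3) to 256 ± 119.9 (log2 fold change 1.88, adjusted p = 0.000367 from limma). In gut the same gene was lower, 1770 ± 335 in wt and 1009 ± 171 in *nub1* flies (−0.80, adjusted p = 0.0295, under the 2-fold minimum). There 2 of 5 were called, and both fell. *vir-1*, a gene induced by virus infection, went from 251 ± 21.6 in wt to 93.3 ± 27.9 in *nub1* gut (log2 fold change −1.37, adjusted p = 8.21e-05), and *chinmo*, a transcription factor gene, from 36.3 ± 7.61 to 9.60 ± 4.13 (−1.25, adjusted p = 0.000858). The median over the list was 0.07 in carcass and −0.80 in gut, against −0.02 and −0.06 over all tested probe sets.

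None of the 5 tested genes of the MEKK1 and p38 kinases was called in either tissue, nor were 9 tested genes of the JNK pathway in carcass and 10 in gut. Under 2-fold, *Mekk1* had a log2 fold change of 0.45 in gut (adjusted p = 0.00600 from limma), and in all 1 of 5 kinase genes and 5 of 10 JNK genes passed the adjusted p there, against 1 of 5 and 1 of 9 in carcass. The JNK phosphatase gene *puc* was at 0.73 (adjusted p = 0.000163) and the JNK gene *bsk* at −0.33 (adjusted p = 0.0131) in gut. Of 12 listed heat-shock genes only 5 were measured, and the listed *Hsp70* genes were not among them. No heat-shock gene of the 5 tested was called in either tissue, and *Hsp27* passed the adjusted p in gut (0.87, adjusted p = 0.0380). In the IMD pathway, 1 of 11 tested genes was called in carcass and 2 in gut (4.71% and 9.28% of all tested probe sets). All of these calls were higher and were inhibitors of the pathway. The recognition gene *PGRP-LC* was listed but not measured here, and the study reports it as higher in *nub1* carcass and gut. The calls therefore do not show that inhibitors alone rose. At any fold, 2 and 6 of the 11 passed the adjusted p. *PGRP-LB*, an amidase that degrades peptidoglycan, rose in carcass from 15.4 ± 2.63 (SD, n = 3) to 51.1 ± 21.3 and in gut from 255 ± 16.9 to 576 ± 29.6 (log2 fold changes of 1.22 and 1.15, adjusted p = 0.000820 and 0.000614 from limma). *pirk*, which blocks signalling at the receptor, rose in gut from 256 ± 59.4 to 1101 ± 150.5 (2.08, adjusted p = 5.24e-05).

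Among other genes of stress and starvation responses, 3 of 12 tested were higher and 1 lower in *nub1* carcass, and 3 of 11 were higher in *nub1* gut, against the same 4.71% and 9.28% of all tested probe sets in either direction. The glutathione S-transferase gene *GstD2*, which acts in detoxification, rose in both, with log2 fold changes of 2.15 in carcass (adjusted p = 6.27e-05 from limma) and 3.43 in gut (adjusted p = 6.78e-07). *GstD1*, of the same family, rose by 1.04 and *ImpL2*, an antagonist of insulin, by 1.27 in gut. In carcass the storage protein gene *Lsp2* rose by 2.67, and *fln*, which stands on this list but encodes a protein of flight muscle filaments, by 1.27. *cnc*, the Nrf2 homologue that activates detoxification genes, fell by 1.57 in carcass. Unlike *TotX* in carcass and all 3 Turandot genes in gut, the groups of *GstD2* were far apart, 465 to 723 on the *nub1* gut arrays against 41.4 to 55.2 in wt gut.

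**Figure D4:**
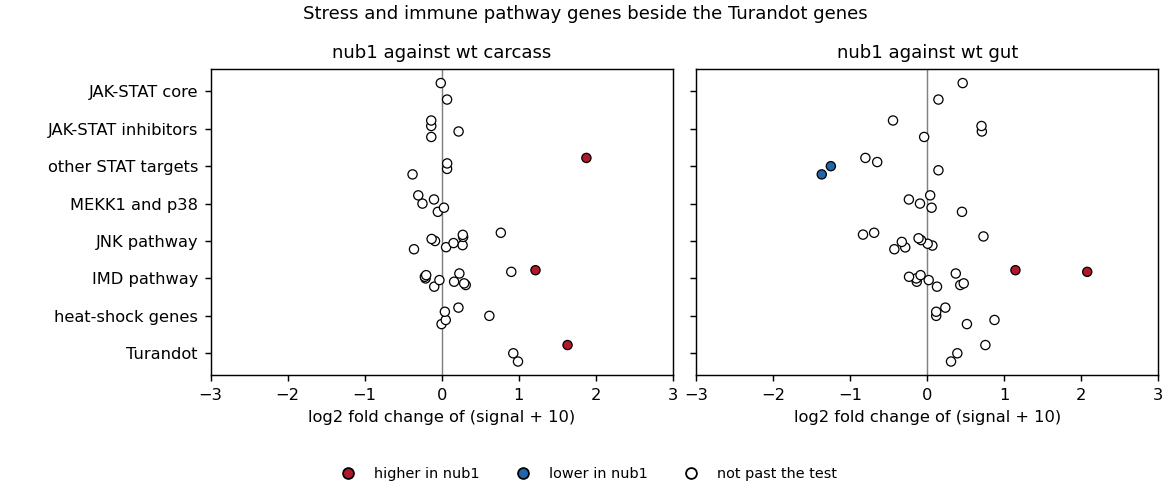
Log2 fold changes of (signal + 10), *nub1* against wt, of every tested gene of 7 lists and of the 3 Turandot genes in carcass and in gut, with filled points for genes called higher (red) or lower (blue). The 2 core JAK-STAT genes that could be tested, *Stat92E* and *dome*, lie near 0 in carcass (−0.01 and 0.07). The filled points are *Listericin*, *PGRP-LB* and *TotX* in carcass and *vir-1*, *chinmo*, *PGRP-LB* and *pirk* in gut.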

How the data were processed

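RNA was measured on Affymetrix Drosophila Genome 2.0 arrays. The authors deposited linear intensity values, made with the MAS5 default pipeline of Affymetrix Expression Console, and the sources used here give no tool version or genome build. Of 18952 probe sets, 183 controls were left out. No sequence table was given, so a planned survey of proteins and promoters was not run.

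The signals were fitted as log2(signal + 10) with limma 3.58.1 in R 4.3.3 (lmFit, contrasts and eBayes with a trend on intensity, 8 residual degrees of freedom), as described in the results, and checked on simulated data. Correlations were computed with numpy 2.4.6, pandas 2.3.3 and R, with ranks from scipy 1.17.1. With 3 arrays against 3, an exact permutation test reaches p = 0.1 at the lowest, and so few arrays limit the precision. The methods name two-group t-tests without saying whether they were paired. One was run unpaired on the linear signals as an alternative, called the methods' t-test below. It used the same filter and adjustment as limma, although the methods state no adjustment for their t-tests. The values given for it are log2 ratios of mean signals without a pseudocount. Other settings of the pseudocount, filter, normalization, moderation, block and arrays included were also run. Gene lists were counted from probe sets that the platform annotation gives 1 gene. Named were the family, the 5 genes most like each member, and genes called in the pathway lists with the defining ligands, receptor and transcription factor. Pathway genes named with changes under 2-fold were chosen after their values were seen, apart from these defining genes. The members and lists were chosen with earlier results of these data known. Replicate numbers were checked as pairs by correlation, and with 3 arrays a group the check could not decide whether gut and carcass share flies.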

Additional observations from a re-analysis of the deposited data

How the results depend on the processing

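Of 246 values of the 3 Turandot genes under alternatives, 214 kept direction and call, 22 lost the call, 7 gained it and 3 changed direction. These counts include the setting without *nub1* gut replicates 1 and 3, which leaves 1 array in that group. The causes were not tested. The rise of *TotX* in carcass (log2 fold change 1.63, adjusted p = 0.0384 from limma) kept its direction throughout but lost the call with a pseudocount of 1 (1.81, adjusted p = 0.0768), with no filter (1.63, adjusted p = 0.0742), with quantile normalization (1.49, adjusted p = 0.0818), with robust moderation (1.63, adjusted p = 0.0560) and, without 1 array, in 5 of 6 cases (1.36 to 1.99). With the replicate number as a block it was 1.63 with an adjusted p of 0.0527, and the block changed no other call. Same-numbered arrays of the 2 genotypes correlated by −0.08 to −0.01 in carcass and by −0.35 to 0.33 in gut. Arrays of different numbers correlated by −0.11 to 0.16 and by −0.44 to 0.49. Gut and carcass arrays of the same number correlated by −0.04 to 0.17 in wt and by −0.03 to 0.15 in *nub1* flies. With different numbers these were −0.12 to 0.08 and −0.13 to 0.16. With 3 arrays a group, these values cannot decide whether the numbers pair the arrays.

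Without 1 array, the gut log2 fold changes ranged from −0.38 to 0.98 for *TotC*, from −0.44 to 1.37 for *TotM* and from 0.11 to 1.28 for *TotX*. The differences between tissues ranged from −1.37 to 0.44 for *TotM* and from −1.53 to −0.35 for *TotX*. Gut minus carcass in wt flies ranged from −2.01 to −1.05 for *TotC* and from −1.60 to −0.97 for *TotX*, and in *nub1* flies from −2.45 to −0.64 for *TotM*. *TotC* in wt flies also lost the call with no filter (−1.67, adjusted p = 0.0598), quantile normalization (−1.61, adjusted p = 0.0721), robust moderation (−1.67, adjusted p = 0.0678) and the methods' t-test (−2.06, adjusted p = 0.217), and in *nub1* flies with the methods' t-test (−2.21, adjusted p = 0.0800). *TotX* in wt flies lost it with a pseudocount of 32 (−0.86) and the methods' t-test (−1.94, adjusted p = 0.0961). *TotM* gained it in wt flies with the methods' t-test (−1.25, adjusted p = 0.0350), and in *nub1* flies with a pseudocount of 32 (−1.28, adjusted p = 0.0455). Without *nub1* gut replicates 1 and 3, which leaves 1 array in that group, the log2 fold change of *TotM* in *nub1* flies was −1.32.

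Over all probe sets, a pseudocount of 32 gave 230 calls in carcass, 549 in gut and 403 for the difference, against 417, 908 and 669. The methods' t-test gave 539 in gut. Without *nub1* gut replicates 1 and 3, 1042 were called for the difference, and 2165 against 3621 between the tissues of *nub1* flies.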
